A study of Homo sapiens with 4 samples.

Results

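The genes described are 10 members of the interleukin-1 (IL-1) and interleukin-6 (IL-6) cytokine families and their close relatives: IL1A, IL1B, IL18, IL33, IL1RN, IL1R1, IL6, IL11, LIF and IL24. They were taken as the probes whose platform gene symbol is one of these names, which gave 14 of the 47322 probes and 10 of the 20043 genes on the array. Each group was represented by 1 bead array of total RNA. The groups were MDA-MB-231 cells, a breast cancer line given no treatment, MCF10A cells, a non-tumorigenic breast epithelial line given no treatment (the untreated array), MCF10A cells given exosomes of MDA-MB-231 cells (the exosome array), and MCF10A cells given such exosomes loaded with a Dicer antibody (the Dicer antibody array). Exosomes are small vesicles that cells release, and Dicer is the enzyme that cuts microRNA precursors to their mature form. All cultures were grown in medium whose serum had been depleted of exosomes, and the exosomes were prepared by ultracentrifugation. No exosome dose or exposure time is given in the sources used here.

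IL-1 alpha and IL-1 beta bind the same receptor, IL1R1, which pairs with the accessory protein IL1RAP and signals through MYD88 and the IRAK kinases to NF-kB. IL-1 beta and IL-18 are made as inactive precursors that caspase-1 cuts inside inflammasomes, whereas the IL-1 alpha precursor is already active, and IL1RN is a natural antagonist that occupies IL1R1 without signalling. The IL-6 family ligands IL-6, IL-11 and LIF share the signalling receptor chain gp130 (IL6ST), which acts through JAK kinases and STAT3. IL24 belongs to the IL-10 family, binds receptors of the IL-20 type and also acts through JAK and STAT proteins. Epithelial cells and fibroblasts can make most of these cytokines when stimulated, and IL-1 is a known inducer of IL6, IL11 and LIF.

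Promoter windows are shown for the members that stood at least 2-fold higher on the Dicer antibody array and whose window holds a match to a searched motif. The windows are the 250 bases before the RefSeq start site, read from the RefSeq table of GRCh38.p14, 5′ to 3′ on the gene's own strand. Capitals mark matches, on either strand, to GGGA followed by any 4 bases and CC (an NF-kB type motif), TGANTCA (an AP-1 type motif) or TTGCNNAA (a C/EBP type motif).
IL6 (chr7:22726950-22727199, plus strand): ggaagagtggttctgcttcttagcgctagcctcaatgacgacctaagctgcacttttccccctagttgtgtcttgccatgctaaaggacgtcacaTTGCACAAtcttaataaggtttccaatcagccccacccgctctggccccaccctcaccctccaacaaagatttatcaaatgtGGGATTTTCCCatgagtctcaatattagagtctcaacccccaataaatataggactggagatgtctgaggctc
IL1A (chr2:112784494-112784743, minus strand): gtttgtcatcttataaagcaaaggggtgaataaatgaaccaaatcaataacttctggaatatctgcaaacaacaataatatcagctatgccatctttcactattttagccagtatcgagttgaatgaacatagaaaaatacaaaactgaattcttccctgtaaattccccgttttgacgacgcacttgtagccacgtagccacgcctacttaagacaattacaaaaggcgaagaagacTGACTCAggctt
IL1B (chr2:112836780-112837029, minus strand): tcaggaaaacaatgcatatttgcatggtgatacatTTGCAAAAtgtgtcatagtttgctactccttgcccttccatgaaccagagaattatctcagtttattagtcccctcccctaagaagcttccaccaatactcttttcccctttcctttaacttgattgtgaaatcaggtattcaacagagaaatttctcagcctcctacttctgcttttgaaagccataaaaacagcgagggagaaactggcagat
IL11 (chr19:55370464-55370713, minus strand): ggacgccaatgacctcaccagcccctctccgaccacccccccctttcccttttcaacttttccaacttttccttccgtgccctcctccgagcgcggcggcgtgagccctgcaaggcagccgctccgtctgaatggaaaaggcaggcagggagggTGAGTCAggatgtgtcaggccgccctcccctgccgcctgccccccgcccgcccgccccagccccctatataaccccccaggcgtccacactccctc
In the IL6 window, 2 NF-kB type matches, on opposite strands, overlap at positions -73 to -64 and -72 to -63 from the start site, and the C/EBP type match lies at -155 to -148. The IL1A window has an AP-1 type match at -12 to -6, the IL11 window has one at -96 to -90, and the IL1B window has a C/EBP type match at -215 to -208. The IL24 window held none of the 3 motifs, and 8 of the 10 genes had an entry in the table, with IL18 and LIF not among them. Of all 35116 windows of this length, 22.6% hold the NF-kB type letters, 6.57% the AP-1 type and 9.05% the C/EBP type, so a match is a description of these letters only. IL1A (chr2:112773925-112784493), IL1B (chr2:112829751-112836779) and IL1RN (chr2:113099360-113134014) lie in 1 cluster on chromosome 2, with 45257 bases between IL1A and IL1B.

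The arrays differed strongly in how much they detected, where a probe counts as detected at a deposited detection p-value below 0.01. Of the 20043 genes, 11362 passed on the untreated array and 11287 with the Dicer antibody, but 1594 on the array of MDA-MB-231 and 1575 on the exosome array. Among the 3 arrays labelled MCF10A, the untreated one detected 4 of 11 epithelial markers, the one with the Dicer antibody 7 and the exosome one 0. The basal keratins KRT5 and KRT14 and the epithelial adhesion gene CDH1 were detected on none of the 4 arrays, while LAMB3, a laminin chain of basal cells, read 145.1 units on the untreated array and 3185.9 with the Dicer antibody. All 10 fibroblast markers were detected on the untreated array, with signals of 238.2 to 18125 units that summed to 70464, and 6 of 10 on the Dicer antibody array, where they summed to 2633. Whether each array holds the cells its label names was not tested, so the groups below are named as labelled and every difference is one between these arrays. With 1 array per group no test was possible, so differences are given as sizes and counts, and the number of arrays limits their precision.

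**Figure D1:**
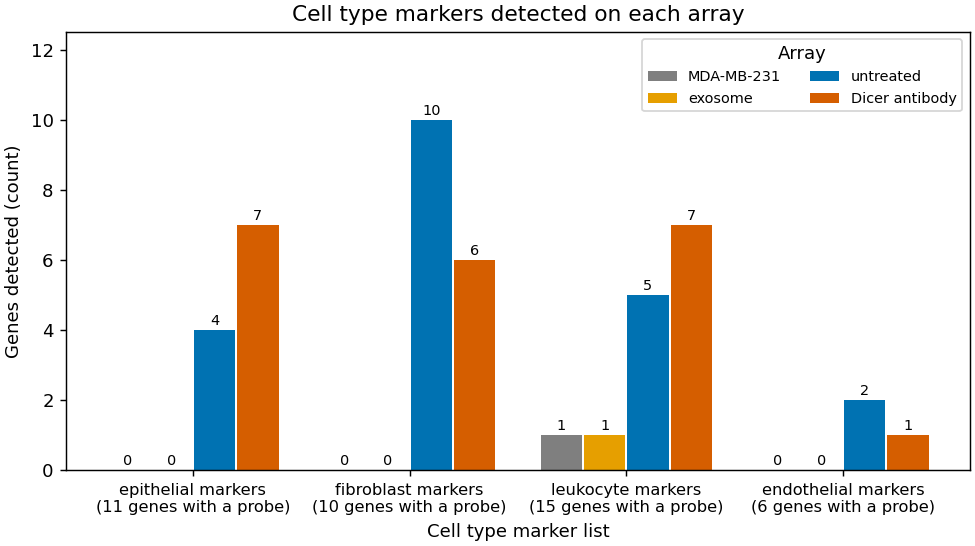
Number of genes detected on each array (vertical axis, count) in 4 lists of cell type markers (horizontal axis), with 1 bar per array. The untreated array has all 10 fibroblast markers, while the exosome array and that of MDA-MB-231 have at most 1 detected marker in any list.

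All 14 probes were below the detection threshold in MDA-MB-231 cells and on the exosome array. Member signals there ran from 43.4 to 67.1 units and from 43.2 to 77.4 units, beside array medians of 51.8 and 52.7. The untreated array detected 6 of the 10 genes and the Dicer antibody array 9, with 5 shared, beside 56.7% and 56.3% of all genes. Of all 20043 genes, 10141 were detected on both of these arrays. In bulk RNA, fewer cells that make a transcript and less of it per cell cannot be told apart.

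**Figure D2:**
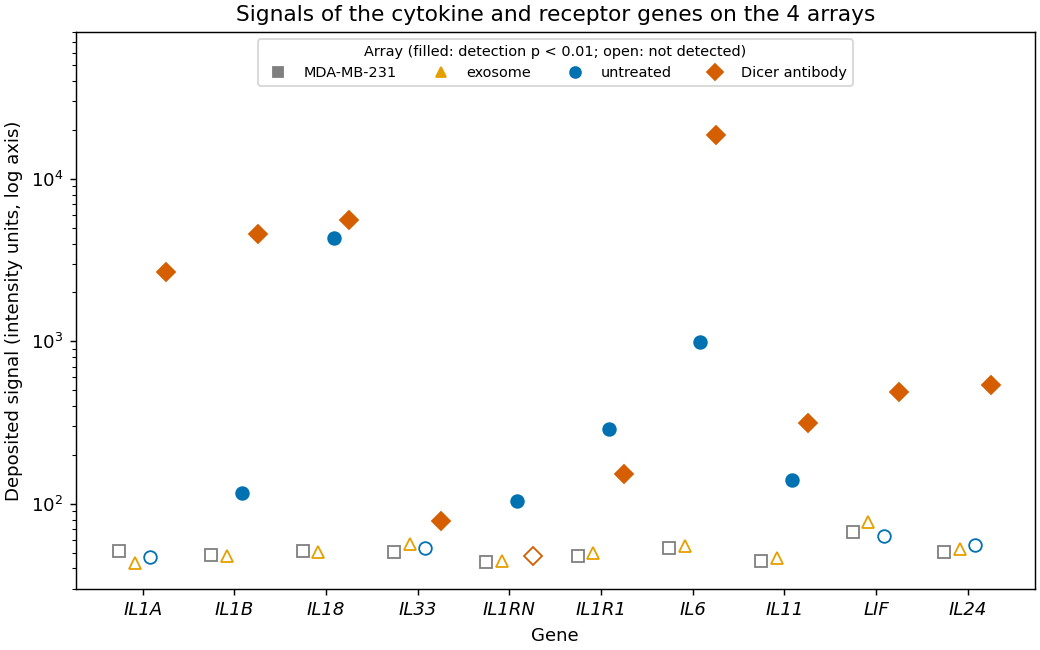
Deposited signal (vertical axis, intensity units, log axis) of the probe that represents each of the 10 genes (horizontal axis) on the 4 arrays; filled symbols are detected, open symbols are not. IL6 reads 18620 units on the Dicer antibody array, and every symbol of the exosome array and of MDA-MB-231 is open.

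Between the Dicer antibody and untreated arrays, which by their labels differ in exosomes that carry the Dicer antibody, 6 of the 10 genes were at least 2-fold higher on the Dicer antibody array: IL1A, IL1B, IL6, IL11, LIF and IL24. None was at least 2-fold lower. Of all 12508 genes compared, 14.8% passed the 2-fold threshold upward and 16.7% downward. The median log2 difference of the 10 genes was 2.25, beside -0.01 for all genes compared. For 5 of the 10 genes the difference is a bound, because they were detected on only 1 of these arrays, and a gene seen only through its bright array could not differ the other way. Of the 12508 genes compared, 10141 were detected on both arrays. Folds are taken after background correction and quantile normalization, and a bound, written "at least", is the smallest over 9 ways of scaling the arrays. Counts use the quantile-normalized values, so a counted gene can have a printed bound under 2-fold. Among genes that met the 2-fold threshold, 47.0% were higher on the Dicer antibody array, and 36.4% were when each array was scaled to its median.

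**Figure D3:**
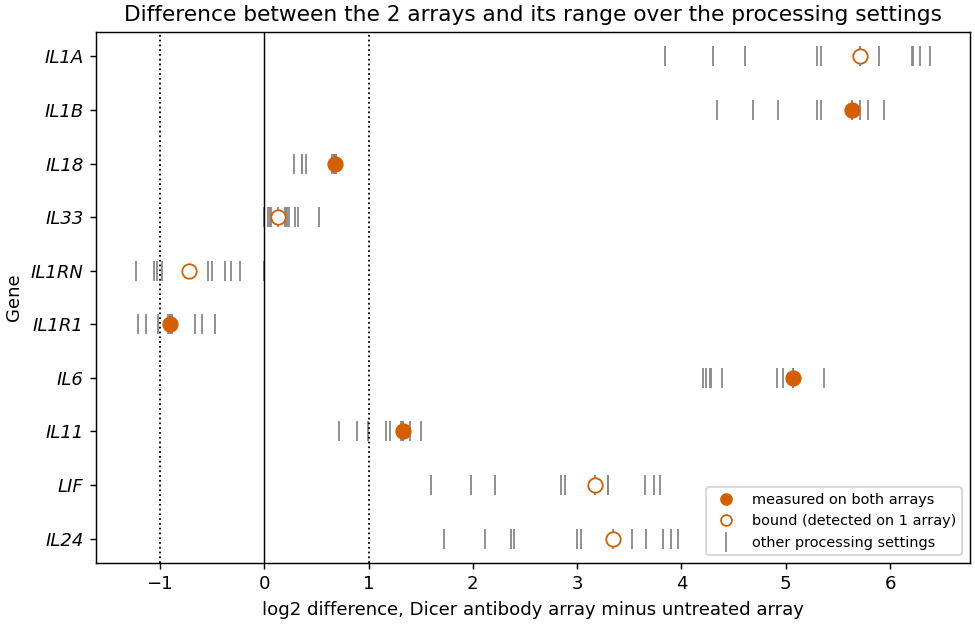
log2 difference of each gene (vertical axis), Dicer antibody array minus untreated array (horizontal axis). Circles are the reported values, filled where measured on both arrays and open where a bound; grey ticks are the other processing settings, and dotted lines mark 2-fold. IL1A, IL1B, IL6, LIF and IL24 lie beyond 2-fold in every setting, while ticks of IL11, IL1R1 and IL1RN fall on both sides of the line.

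The agonists of the IL-1 receptor were low or undetected on the untreated array and bright on the Dicer antibody array. IL1B (probe ILMN_1775501) read 48.3 units on the MDA-MB-231 array, 47.4 on the exosome array, 115.9 in untreated cells and 4549.9 on the Dicer antibody array. It was detected on the last 2 of these, with the Dicer antibody array far above the others. The difference was 49.6-fold, and 20.2-fold in the authors' deposited value table after an offset of 16 was added to its values. By size it was number 8 from the top among the 10141 genes detected on both arrays. IL1A (ILMN_1658483) read 51.4, 43.2, 47 and 2674.2 units on the same arrays in the same order and was detected on the Dicer antibody array alone, at least 14.3-fold above the untreated array. Both genes were thus brightest on the Dicer antibody array and undetected in MDA-MB-231 cells and on the exosome array.

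IL18 and IL33 did not pass the 2-fold threshold. IL18, a cytokine that also needs caspase-1 and drives interferon gamma production in lymphocytes, read 51.5 units on the MDA-MB-231 array, 50.7 on the exosome array, 4334.3 in untreated cells and 5576.8 on the Dicer antibody array. The last 2 stood within 2-fold of each other, with a log2 difference of 0.68. IL33, an alarmin released from damaged barrier cells, has 2 probes on the array. The first (ILMN_1809099) read 50.5, 56.5, 53.3 and 77.9 units and passed the detection threshold on the Dicer antibody array alone, with a detection p-value of 0.0026, and the second (ILMN_2052924) read 43.4 to 50.1 units and was detected nowhere. Its bound was at least 1.03-fold, which leaves the size of the difference unknown, since the signal lay near the detection limit.

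The antagonist and the receptor did not share the direction of the agonists. IL1RN has 3 probes, of which 1 was detected on any array: ILMN_1774874 read 44, 44.4, 104.5 and 47.9 units on the MDA-MB-231, exosome, untreated and Dicer antibody arrays, and was detected on the untreated array alone. Its bound was at least 1.17-fold lower on the Dicer antibody array over the scalings. The bound was 0 on the log2 scale at a detection p-value below 0.05 and with the mean over the probes of a gene. ILMN_1689734 read 47.7 to 52 units, and ILMN_1806249 read 61.1, 72.2, 52.8 and 65.1 units in the same order of arrays, and neither was detected on any array. IL1R1, the signalling receptor, read 47.8, 49.5, 287.4 and 152.1 units. Both arrays with many detected genes showed it, the Dicer antibody array lower by a log2 difference of -0.90, which is within 2-fold. With each array scaled to its median this became -1.21, while the median of all genes detected on both arrays was -0.22 under that scaling.

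The 3 IL-6 family members, all of them ligands, were higher on the Dicer antibody array. IL6 (ILMN_1699651), a driver of acute-phase and inflammatory responses, read 53.6 units on the MDA-MB-231 array, 54.9 on the exosome array, 988.3 in untreated cells and 18620.3 on the Dicer antibody array. It was 33.7-fold higher on the Dicer antibody array than on the untreated array, number 12 from the top among the genes detected on both, and 18.45-fold higher with each array scaled to its median. LIF, which maintains stem cell states and acts through LIFR and gp130, read 67.1, 77.4, 63.1 and 485.8 units and was detected on the Dicer antibody array alone, at least 3.02-fold above the untreated array. At a detection p-value below 0.05 in place of 0.01, LIF counted as detected on all 4 arrays, with p-values of 0.013, 0.0182 and 0.0351 on the 3 arrays where it was dim. IL11, a gp130 cytokine linked to fibrosis and bone turnover, read 44.5, 46.3, 139.7 and 313.9 units. Its difference was 2.52-fold, and it fell below 2-fold without background correction, with an offset of 50 and in the authors' deposited value table, at log2 differences of 0.89, 0.99 and 0.72. The last of these was taken with an offset of 16 added to the authors' values.

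IL24, an IL-10 family cytokine first described in differentiating melanoma cells, was detected by both of its probes on the Dicer antibody array and by neither on the others. ILMN_1774685 read 50.5 units on the MDA-MB-231 array, 52.8 on the exosome array, 56.1 in untreated cells and 542.1 on the Dicer antibody array. ILMN_1725814 read 52.1, 51.7, 51.5 and 164.9 units, so both probes were highest on the same array, with the first the brighter there. The first probe gave a bound of at least 3.31-fold.

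The receptors and adaptors around these cytokines were mixed between the Dicer antibody and untreated arrays. The counts of each list below stand beside 14.8% of all genes compared at least 2-fold higher and 16.7% lower. Of 9 further IL-1 family receptor and binding protein genes with a probe, 4 were compared and 2 were at least 2-fold higher, with none lower. IL1RAP, the accessory chain of IL1R1, read 355.7 against 89.3 units and was 4.70-fold higher, and a second of its 3 probes read 203.7 against 67 units. IL1RAPL1, a relative of IL1RAP known from neurons, was at least 3.81-fold higher. The decoy receptor IL1R2 was not detected on these arrays, nor was any of the 6 other IL-1 family ligands of the list, IL36A, IL36B, IL36G, IL36RN, IL37 and IL1F10.

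Among 11 IL-1 signalling genes, 2 were at least 2-fold higher, 3 at least 2-fold lower and 6 within 2-fold, with a median log2 difference of -0.17. The kinase IRAK2 read 2338.5 against 287.4 units, 9.85-fold higher, and the ubiquitin ligase PELI2 was 3.22-fold higher. The adaptor MYD88 read 191.3 against 615.5 units, 3.05-fold lower, TOLLIP, which restrains IL-1 receptor signalling, was 2.38-fold lower, and IRAK3, an inhibitory member of the kinase family, was at least 1.65-fold lower. The smallest folds over the scalings were 1.78 for PELI2 and 1.80 for TOLLIP, both under 2-fold.

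The inflammasome and processing list also split, with 2 genes higher and 2 lower of 10 compared. The count higher was 3 with the mean over the probes of a gene. It was 1 of 8 compared with the probe of the highest mean. The count lower was 1 in the authors' value table. Caspase-1 (CASP1) read 1134.5 against 208 units, 6.44-fold higher, and the DNA sensor AIM2 was 5.23-fold higher. The adaptor PYCARD, which joins sensors to caspase-1, read 53 units on the Dicer antibody array, where it was not detected, against 1312.4 on the untreated array, at least 6.24-fold lower. The protease CAPN2, a calpain, was 2.56-fold lower, and 1.97-fold in the scaling that gave least. The sensor NLRP3 read 81.3 against 56.9 units, at least 1.05-fold higher.

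For the IL-6 family, cardiotrophin 1 (CTF1) was the only further ligand detected on either array, at 65.2 against 413.6 units and at least 2.45-fold lower. Of 8 receptor genes with a probe, 5 were compared, 2 were higher and none lower. The oncostatin M receptor OSMR was 2.56-fold higher, with a smallest fold over the scalings of 1.90, and CRLF2, a receptor chain for the cytokine TSLP, at least 1.38-fold higher. The shared chain IL6ST read 4934.4 against 3429.5 units by the probe used, within 2-fold. Another of its probes, detected on both arrays, read 198.5 against 69.1 units. A further one read 105.1 against 55.9 units and was detected on the Dicer antibody array alone. With the mean over the probes of a gene, 3 receptor genes were higher in place of 2. The count fell to 1 when the offset was 50, and to 1 when background was left uncorrected. It was 0 in the authors' value table. IL6R, the chain that binds IL-6 itself, was not detected. Genes of the JAK-STAT signalling list, inhibitors included, were at least 2-fold lower for 3 of 11 and higher for none. Their median log2 difference was -0.11. STAT5A was 4.10-fold lower, PIAS3, an inhibitor of STAT3, 4.02-fold and the phosphatase PTPN11 2.06-fold, while STAT3 and SOCS3, the feedback inhibitor of gp130 signalling, had log2 differences of 0.67 and -0.08. The smallest folds over the scalings were 1.87 for STAT5A and 1.98 for PTPN11. In the IL-10 and IL-20 family, IL20RB, a receptor chain for IL-24, read 2177.5 against 309.8 units, 8.59-fold higher, IL10RB was 3.67-fold lower, and the other 2 of 4 genes compared were within 2-fold. The receptor chains IL20RA, at 53.9 against 55.1 units, and IL22RA1, at 65.1 against 53.9 units, were detected on neither array.

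Genes that IL-1 is known to induce were higher for 13 of 15 compared, with none at least 2-fold lower, and their median was 2.79 on the log2 scale. CXCL2, a chemokine for neutrophils, read 5639.6 against 93.5 units, 79.2-fold higher, the chemokine CCL20 was at least 12.3-fold higher, and the cytokine IL32 was 22.5-fold higher. Over the scalings the fold was at its smallest 28.3 for CXCL2 and 11.3 for IL32. CXCL1 and TNFAIP6 were within 2-fold. Genes linked to STAT3 were higher for 4 of 8, with a median of 0.97. MYC was 15.6-fold, BCL3 3.80-fold and PIM1 2.91-fold higher, and TIMP1 differed by 0.05 on the log2 scale. Some of these genes respond to many signals, and the lists were chosen with results of these arrays known, so their counts are descriptions.

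**Figure D4:**
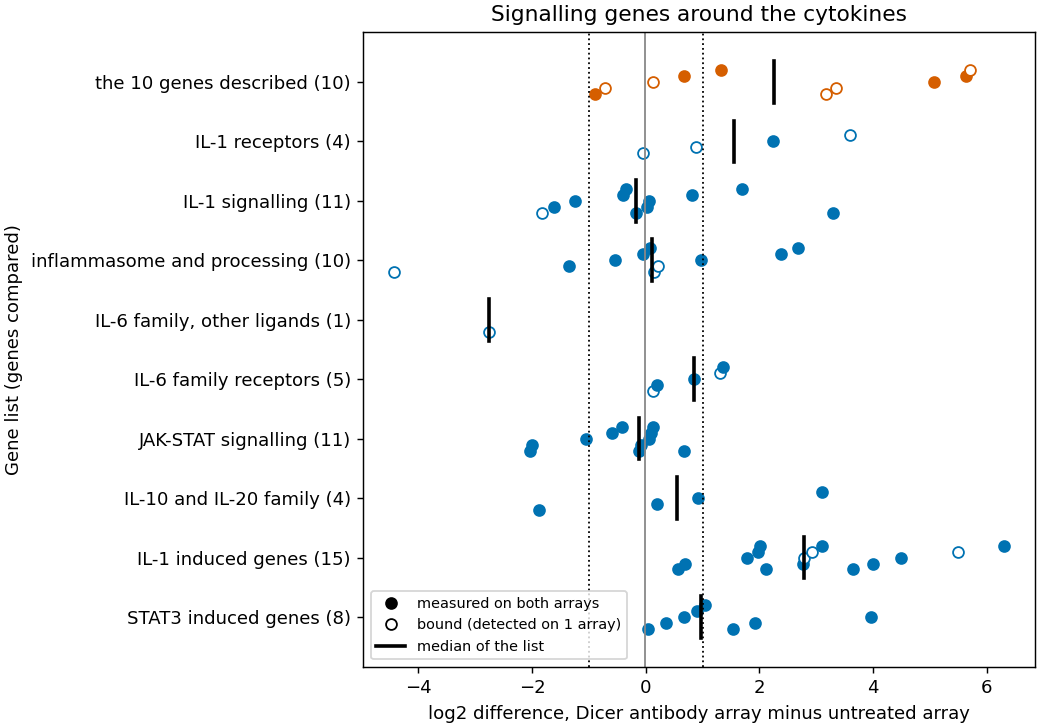
log2 difference, Dicer antibody array minus untreated array (horizontal axis), of the genes compared in each list (vertical axis); open circles are bounds, black bars are list medians, the grey line is the median of all genes and dotted lines mark 2-fold. The IL-1 induced genes have a median of 2.79, and the JAK-STAT genes one of -0.11.

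Markers of other cell types moved between the same arrays. Fibroblast markers were at least 2-fold lower on the Dicer antibody array for all 10 genes compared (POSTN by at least 1.73-fold in every scaling), COL1A2 by at least 196.6-fold and lumican (LUM) by at least 43.8-fold. Epithelial markers were at least 2-fold higher for 4 and lower for 1 of 8 compared, with LAMB3 27.1-fold higher and KRT8 at least 2.45-fold higher. The lower one was DSP, at 222.3 against 715.8 units and a log2 difference of -1.587. KRT19 read 58.5 against 123.8 units and was detected on the untreated array alone, with a bound within 2-fold. Of 15 leukocyte markers the Dicer antibody array detected 7 and the untreated array 5, with summed signals of 2194.7 and 3634.4 units. The pan-leukocyte gene PTPRC was detected on no array, CD14 read 624.6 against 297.9 units, and CD68 read 410.1 against 2488 units. Of 6 endothelial markers they detected 1 and 2, with PECAM1 at 293.5 against 82.2 units and VWF not detected. The part of cell makeup in the cytokine differences was not tested.

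By their labels, the exosome and untreated arrays compare MCF10A cells with and without cancer cell exosomes, with the doubt about labels given above. Of the 10 genes, 6 could be compared, all of them detected on the untreated array alone. IL18 was at least 2.41-fold lower on the exosome array, and for the other 5, IL6 included, the bound was 0 on the log2 scale, which gives no information on a difference. Over all genes, 5.23% were at least 2-fold lower and 11.8% higher, a balance that turned with the scaling: 69.4% of genes beyond 2-fold were higher after quantile normalization and 1.83% in the deposited signals alone. The lowest detected value on the exosome array lay at 9.66 on the normalized log2 scale, against 4.83 on the untreated array, so a gene missing from the exosome array had to be bright in untreated cells before it could be counted as lower.

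Against the Dicer antibody array, which differs by its label in the antibody that the exosomes carry, 9 of the 10 genes could be compared and 3 were at least 2-fold lower on the exosome array, beside 4.75% of all genes lower and 12.0% higher. IL6, at 54.9 against 18620.3 units, was lower by at least 17.8-fold, IL18 at least 3.82-fold and IL1B at least 3.08-fold. IL1A read 43.2 against 2674.2 units, at least 1.79-fold lower, and for LIF, IL24, IL11, IL1R1 and IL33 the bound was again 0. Of all genes beyond 2-fold, 71.6% were higher after quantile normalization and 1.83% in the deposited signals alone. This comparison and the one before share the exosome array. The split between arrays with many and with few detected genes cannot be told apart from the groups in either.

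Between MDA-MB-231 and untreated MCF10A cells 6 genes were compared. IL18 read 51.5 units in MDA-MB-231, close to that array's median of 51.8, and its bound lay at least 2.44-fold below the untreated array. The bound of the other 5 was 0 on the log2 scale, beside 5.38% of all genes lower and 12.1% higher. The MDA-MB-231 array detected 1594 genes and the untreated array 11362, with lowest detected values of 9.64 and 4.83 after normalization (log2). Few against many detected genes thus cannot be separated from the groups here either. This comparison shares the untreated array with others above. Here the share of genes beyond 2-fold that were higher went from 69.3% to 0.446% in the deposited signals alone. Between the exosome and MDA-MB-231 arrays none of the 10 genes could be compared, since none was detected on either, while 1959 other genes could, 4.39% of them at least 2-fold higher and 3.78% lower.

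The genes with the most similar pattern were found by the distance between normalized log2 values over the 4 arrays, among 12692 other genes detected on at least 1 array. Values below detection enter this distance, and 4 arrays give few points. Nearest to IL1B was the chemokine CXCL2, at a distance of 0.73, followed by PVT1 (0.91) and SINHCAF (0.95). Nearest to IL6 were the histone gene H4C3 (0.69), the neutrophil-attracting chemokine CXCL8 (1.89) and the stress cytokine GDF15 (2.07), and the last 2 lay farther off than any gene named for IL1B. IL1A stood closest to FOXA2 (0.20), VCX3B (0.22) and GAGE12B (0.29), and IL24 to GALNT18, CHRNA1 and PLAAT4, at 0.29 to 0.33. LIF stood closest to MIR302C (0.35), DLX1 (0.56) and SNORD17 (0.61). Its normalized values were 9.506 for MDA-MB-231, 9.332 with exosomes, 4.701 untreated and 8.001 with the Dicer antibody. The signals of LIF, in that order, were 67.1, 77.4, 63.1 and 485.8 units. In this distance LIF was thus highest where it was not detected, and its neighbours do not reflect the order of its signals. The remaining distances were small. IL11 had LSM8, UBE2O and COA7 at 0.06 to 0.12, IL18 had PPP1R15A, HSPH1 and ATP5MC2 at 0.24 to 0.27, and IL1R1 had LINC02035, RUFY1 and RBM15B at 0.10 to 0.13. IL33 had LHX6, CCDC144A and FGF21 at 0.14 to 0.21, and IL1RN had RIMKLB, KIF26B and SNCG at 0.07 to 0.08.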

How the data were processed

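Total RNA was copied into biotin-labelled RNA and hybridised to 1-colour bead arrays, 1 per group, per the labels' protocols. The deposited non-normalized table gives a linear intensity per probe without background subtraction, and beside each a deposited detection p-value. The authors also deposited a value table of normalized intensity, by a method not given in the sources used here. In place of normalized values it lists detection p-values for the exosome array, within 0.0026 of the non-normalized table. Per the submitters' processing notes, the authors' tools included limma.

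Signals were background-corrected from the detection p-values, quantile-normalized over the 4 arrays and logged to base 2 with neqc of limma 3.58.1 in R 4.3.3 (offset 16). The authors' value table was also logged with an offset of 16 added, which makes its folds smaller than the ratios of the deposited values. Tables were handled with Python 3.11.15 and pandas 2.3.3. Probes were named from the platform annotation: 30110 had 1 gene symbol, 8 several and 17204 none, with 30071 matched to a current symbol by gene identifier. A gene took the probe detected on most arrays, then the one with the highest mean. Comparisons used genes detected on at least 1 of the 2 arrays. A gene detected on 1 array only got a bound against the higher of the other array's lowest detected value and its own value there. The smallest bound over 9 scalings, or 8 with the exosome array, is printed. No p-value was possible. The calculation was tested on simulated arrays that share the same expressed genes, for the Dicer antibody against untreated comparison only. The gap in detected genes between the real arrays was not simulated.

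Named were the 10 members, up to 3 genes higher and 3 lower in each list, the 3 genes nearest to each member and the defining cell markers; genes within 2-fold or not detected that are named beside them were chosen after their values were seen. Members, lists, motifs and the rule for a gene's probe were chosen with earlier results of these data known. Of 153 listed genes 142 had a probe here.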

Additional observations from a re-analysis of the deposited data

How the results depend on the processing

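Only single arrays stand behind each group, so no replicate could be left out. No paired analysis was possible because each group has 1 array. The 12 alternatives, of which the choice of the brightest probe was added after the data were seen, gave 119 values for single genes between the Dicer antibody and untreated arrays. None changed sign, 87 stayed on the same side of 2-fold and within 1.5 times, and 23 moved by more than 1.5 times. A further 6 passed 2-fold and 3 no longer did. Part of this stability was built in. A bound cannot point away from the array on which its gene was detected. IL1B, IL18, IL1R1, IL6 and IL11 have 1 probe each and were detected on both arrays. Other detection thresholds or probe choices therefore could not move their values. The count of genes higher stayed at 6, or 5 where IL11 dropped out. No gene was lower, but 1 was with no normalization between arrays and with no detection filter, and 2 were with median scaling and with the 2 arrays normalized alone. These were IL1R1 in the first, IL1RN in the second, and both genes in the last 2 settings. The cause was not tested. Of all genes, 1852 were beyond 2-fold higher and 2087 lower. In the authors' value table, with an offset of 16 added, they numbered 1046 and 1175. Without background correction they numbered 1253 and 1382, and with median scaling 1718 and 3000. The probe with the highest mean left 9 genes to compare, since its IL1RN probe was detected on neither array.

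Comparisons with the arrays of few detected genes depended on the scaling. Genes lower on the exosome array than on the untreated array numbered 1, but 2 with scaling to the 75th percentile, 3 in the deposited signals alone, 4 with no normalization and with median scaling, and 6 with no detection filter. Against the Dicer antibody array they numbered 3, but 6, 7, 8, 8 and 7 under the same settings in that order, and 4 at a detection p-value below 0.05. Between MDA-MB-231 and untreated they numbered 1, but 2, 4, 6, 5 and 6. Genes higher numbered 0 in these 3 comparisons, but 1 in each with no detection filter. At a detection p-value below 0.05 they numbered 2 with the exosome array in both comparisons and 1 with MDA-MB-231. The only members below 0.05 on the exosome array were LIF, at 77.4 units, and IL1RN (ILMN_1806249), at 72.2 units. For MDA-MB-231 it was LIF alone, at 67.1 units. Against the Dicer antibody array LIF counted as higher by normalized values, 9.332 against 8.001. Its signal there was the lower one, 77.4 against 485.8 units.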
